A study of Mus musculus with 18 samples.

Results

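The genes described here encode the SR proteins and the heterogeneous nuclear ribonucleoproteins (hnRNPs), families of proteins that decide which exons of a pre-mRNA are kept. They were chosen by name, as every gene whose symbol is Srsf followed by a number or begins with Hnrnp among probe sets with a single gene symbol, with 1 probe set per gene, the one with the highest mean over the 18 arrays. This gave 29 of the 22180 genes tested, 10 SR genes and 19 hnRNP genes. The cells were NaF, a line from a mouse mammary carcinoma, and RNA of 6 groups was read on 3 Affymetrix arrays each. Of these, 3 were grown for 48 hours in DMEM with 10% charcoal-treated fetal bovine serum (FBS), which is stripped of small lipophilic molecules, and then given a ligand at 1 µM for 6 hours. The ligands were all-trans retinoic acid, the natural agonist of the retinoic acid receptors (RAR), TTNPB, a synthetic RAR agonist, and GW1516, a synthetic agonist of the fatty acid receptor PPARδ. Their shared control was the same charcoal-treated culture with no ligand. Palmitate, a saturated fatty acid, was given at 10 µM for 6 hours in full medium (DMEM with 10% untreated FBS), and its control was untreated cells in full medium. The series asked how RAR and PPARδ ligands change gene expression across the genome in this line.

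SR proteins bind exonic enhancers through RNA recognition motifs and recruit the spliceosome through a tail rich in arginine and serine, which CLK and SRPK kinases phosphorylate. The hnRNPs coat nascent transcripts and often block the use of nearby splice sites, so the families frequently oppose each other on the same exon. Genes of both families are known to control their own level by splicing in "poison" exons that carry a stop codon and send the transcript to nonsense-mediated decay. Amounts of SR and hnRNP proteins are commonly altered in carcinoma, and Srsf1 can act as an oncogene in mammary epithelium.

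Srsf2 and Srsf6 were the members that passed the test as falls with each of the 3 ligands, and Hnrnpu and Hnrnpul1 those that did so with palmitate. Their upstream sequences are shown because the results below turn on these 4 genes. Each is the 250 bases before an annotated transcript start, which for Srsf2, Hnrnpu and Hnrnpul1 lies inside the gene's full span, from RefSeq on GRCm38.p6, read 5′ to 3′ on the gene's strand. Capitals mark CCAAT (the CCAAT box), GGGCGG (the GC box) and TATAAA (the TATA box), each on either strand, and overlapping matches run together. Srsf2 is at chr11:116853095-116853344 (minus strand), Srsf6 at chr2:162931258-162931507 (plus strand), Hnrnpu at chr1:178337816-178338065 (minus strand) and Hnrnpul1 at chr7:25754760-25755009 (minus strand).
Srsf2: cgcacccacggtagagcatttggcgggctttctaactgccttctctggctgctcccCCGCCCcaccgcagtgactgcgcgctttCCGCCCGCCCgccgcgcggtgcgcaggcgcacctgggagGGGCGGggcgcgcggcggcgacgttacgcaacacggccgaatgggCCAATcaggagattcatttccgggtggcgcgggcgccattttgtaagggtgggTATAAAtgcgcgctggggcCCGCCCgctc
Srsf6: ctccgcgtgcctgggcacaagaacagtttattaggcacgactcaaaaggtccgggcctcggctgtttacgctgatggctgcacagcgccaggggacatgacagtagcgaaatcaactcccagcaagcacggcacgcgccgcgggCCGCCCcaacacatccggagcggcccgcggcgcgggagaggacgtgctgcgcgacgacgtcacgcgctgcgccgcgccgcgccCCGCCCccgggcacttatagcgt
Hnrnpu: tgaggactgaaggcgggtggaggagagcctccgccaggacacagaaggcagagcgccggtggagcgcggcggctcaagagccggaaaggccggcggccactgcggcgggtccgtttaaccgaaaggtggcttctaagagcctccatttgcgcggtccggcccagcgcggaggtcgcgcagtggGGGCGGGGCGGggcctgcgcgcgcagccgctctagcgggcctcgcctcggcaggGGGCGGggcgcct
Hnrnpul1: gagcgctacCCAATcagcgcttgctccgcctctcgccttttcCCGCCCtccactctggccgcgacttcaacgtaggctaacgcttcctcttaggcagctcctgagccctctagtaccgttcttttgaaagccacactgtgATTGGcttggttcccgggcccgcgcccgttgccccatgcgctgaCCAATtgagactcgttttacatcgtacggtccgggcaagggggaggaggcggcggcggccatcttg
The Srsf2 stretch holds 1 TATAAA, which begins 29 bases before the start, 1 CCAAT and 5 GGGCGG matches, and it is 69.6% G or C. Srsf6 has 2 GGGCGG matches and no TATAAA or CCAAT, Hnrnpu has 3 GGGCGG matches, and Hnrnpul1 has 3 CCAAT matches and 1 GGGCGG match. AGGTCA, the core hexamer of many nuclear receptor elements, occurs in none of these 4 stretches on either strand, which says only that these letters are not in these windows. The table held 39 such windows for 27 of the 29 members (Hnrnpul2 and Hnrnpll are not among them). GGGCGG was found in 76.9% of the 39 windows and in 32.7% of all 32851 windows of the table, CCAAT in 51.3% and 33.8%, TATAAA in 10.3% and 12.4%, and AGGTCA in 7.69% and 14.0%. The windows of the table were not matched to those of the members by expression level or base content, and a gene can have several windows. These differences in share were not tested.

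Values are log2 expression values as deposited, so a difference of 1 is a 2-fold change, and they cannot be compared between probe sets. Array medians were 1.06 to 1.32 on the charcoal-serum arrays and 0.473 to 0.548 on the full-medium arrays, so levels are compared only within a serum. Background was set, per group, at the 95th percentile of the means of 1390 olfactory and vomeronasal receptor genes. This level was 1.15 for retinoic acid, 1.29 for TTNPB, 1.30 for GW1516 and 1.31 for charcoal controls, and it was 0.63 for palmitate and 0.59 for full-medium controls. GW1516 replicate 3 stood apart, with values on average 0.231 from its group mean, against 0.0816 to 0.145 for the other arrays. Of the 10 epithelial marker genes measured, 6 or 7 were above background in each group, among them Cldn3, Krt18 and Cdh1, while Krt14 and Cldn7 were under background in all 6 groups. Their log2 levels, summed over the same probe sets in each group, were 30.6 to 31.4 with retinoic acid, 31.3 to 31.9 with TTNPB and 30.0 to 30.8 with GW1516, against 30.0 to 30.4 in charcoal controls, and 24.6 to 25.0 with palmitate, against 24.5 to 24.6 in full-medium controls. Of these markers Cldn3, a tight junction gene, alone passed the test, with log2 changes of 0.76, 0.62 and 0.41 with retinoic acid, TTNPB and palmitate. The part of this in the results below was not tested. Some epithelial markers counted above background lay near it, with Epcam at 1.51 and Krt8 at 1.68 in charcoal controls. Epcam was under background in both full-medium groups. Krt19 read 1.15 with retinoic acid and was under background with GW1516 and in charcoal controls. Krt7 was above background in full-medium controls only. Of 7 leukocyte, 5 endothelial and 4 adipocyte markers measured, at most 1 of each was above background in any group. The endothelial one was Cdh5, a cadherin gene, at 8.73 with retinoic acid, 8.44 with TTNPB and 8.21 with GW1516, against 8.90 in charcoal controls, and at 7.29 with palmitate, against 7.77 in full-medium controls. Each treated array was below each control array, beside 11.2%, 9.11%, 8.03% and 8.76% of all genes, but Cdh5 did not pass in any of these comparisons (adjusted p = 0.83, 0.58, 0.192 and 0.823, limma), and its GW1516 replicate 3 read 7.24. Its part in the falls below was not tested. Of 9 mesenchymal markers, 2 to 5 were, among them Vim.

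Most members were above background. In the charcoal-serum groups, 27 of 29 members were above background in at least 1 group of each comparison, the others being Srsf12 and Hnrnpa1l2-ps2, a gene named as a processed copy of Hnrnpa1. In full medium Srsf10 and Hnrnph2 were under background as well, which left 25. By the mean over the 18 arrays, 9 of 10 SR genes and 18 of 19 hnRNP genes lay above the median of all genes (1.03). The shares over all genes given below take in genes of every level, many of them near background, and were not matched to the members or the related lists. Since RNA came from whole cultures, a fall can mean fewer cells with a transcript or less of it per cell, and these cannot be told apart.

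**Figure D1:**
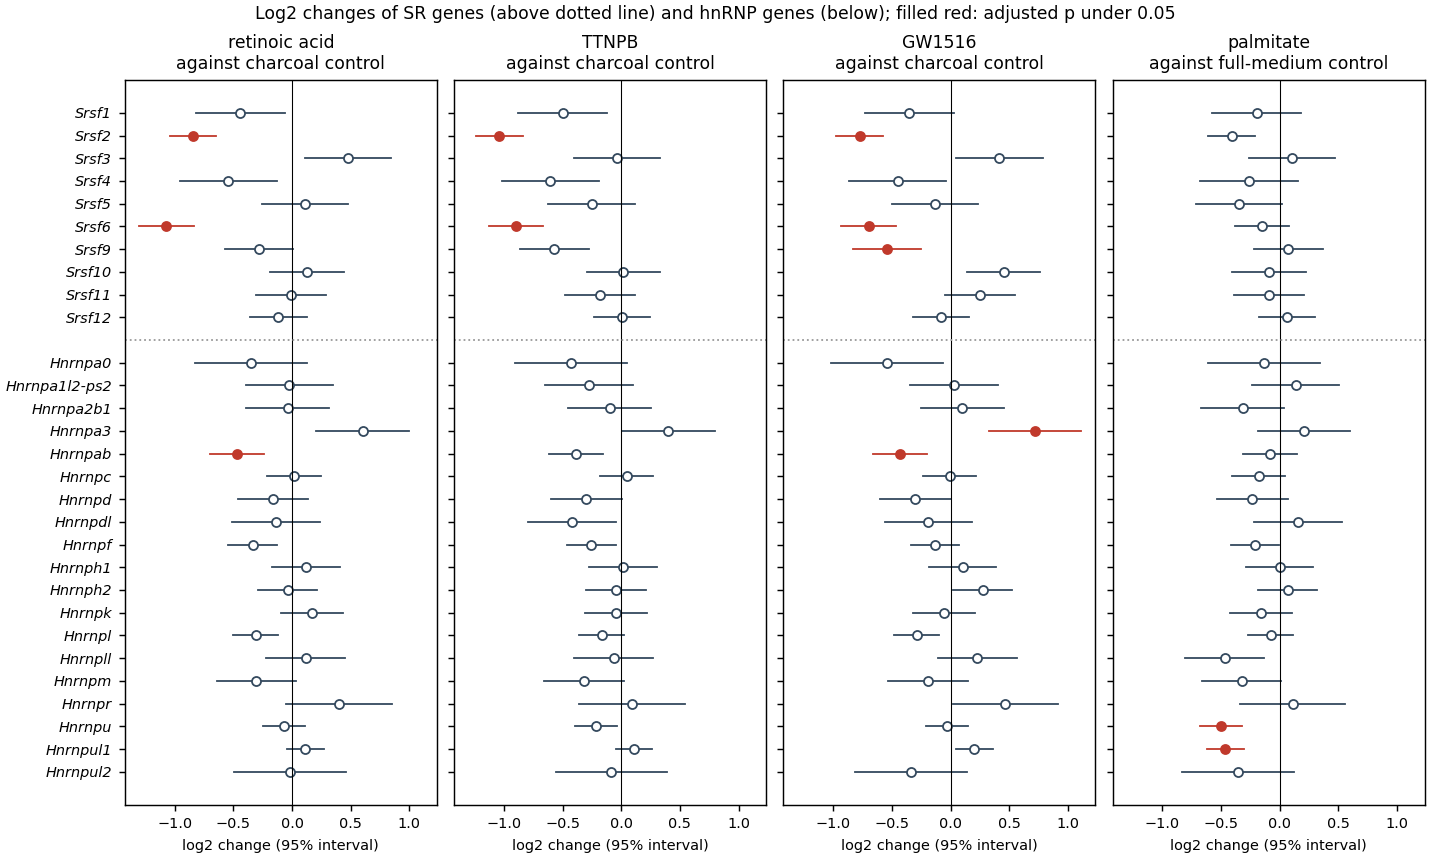
Log2 changes (x axis) with 95% intervals for 10 SR genes and 19 hnRNP genes (rows) in 4 comparisons (panels), 3 arrays a group. Filled red points passed an adjusted p of 0.05. Srsf2 and Srsf6 passed with each of the 3 ligands, all of which were set against the same 3 control arrays, and Hnrnpu and Hnrnpul1 passed with palmitate.

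After retinoic acid, Srsf6 and Srsf2 fell, by 2.10-fold and 1.80-fold, and no member rose by the test, beside 3.82% of all genes that did. Of the 10 SR genes 2 passed (20.0%), beside 5.29% of all 22180 genes tested, and both were falls, beside 1.47% of all genes that passed as falls. Among the 19 hnRNP genes 1 passed (5.26%), a fall of Hnrnpab, which is near the share over all genes. The SR genes had a median log2 change of -0.20 and the hnRNP genes of -0.04, beside -0.03 over all genes.

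Srsf6, an SR protein gene known for roles in epithelial wound repair and skin, had log2 values of 4.78, 4.96 and 5.03 with retinoic acid and 5.96, 5.93 and 6.09 in charcoal controls. The groups were separated by close to a whole log2 unit, with no overlap. The log2 change was -1.07 ± 0.11 (SE, n = 3 each, adjusted p = 1.61e-05 by limma), that is 2.10-fold lower with retinoic acid. The gene (Entrez 67996, read by probe set 17379128) spans 162931508 to 162937121 of chromosome 2 on GRCm38.p6. A second, dimmer Srsf6 probe set (17548230), which was above background in the 4 charcoal-serum groups, averaged 1.37 with retinoic acid, 1.38 with TTNPB and 1.40 with GW1516, against 1.56 in charcoal controls. Its log2 changes of -0.19, -0.19 and -0.16 did not pass in a fit over all probe sets (adjusted p = 0.521, 0.696 and 0.569, limma). With the mean of both probe sets the change of Srsf6 was -0.63 with retinoic acid, -0.54 with TTNPB and -0.43 with GW1516, each past the threshold (adjusted p = 0.00114, 0.0118 and 0.0319).

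Srsf2, which activates many cassette exons and is a marker protein of nuclear speckles, stood at 8.22, 8.11 and 8.18 with retinoic acid and at 9.06, 8.95 and 9.04 in charcoal controls. Each treated array was below each control array. The log2 change was -0.85 ± 0.10 (SE, n = 3 each, adjusted p = 3.73e-05 by limma), 1.80-fold lower. Entrez gene 20382, read by probe set 17272530, spans 116849897 to 116853675 of chromosome 11.

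Hnrnpab, whose protein binds RNA and DNA and is linked to mRNA transport, had values of 9.05, 9.11 and 9.16 with retinoic acid and of 9.61, 9.47 and 9.65 in charcoal controls. Its groups did not overlap, and the log2 change was -0.47 ± 0.11 (SE, n = 3 each, adjusted p = 0.0144 by limma). The call was lost without charcoal control replicate 1 or 3 (adjusted p = 0.0569 and 0.062), without retinoic acid replicate 1 or 2 (0.072 and 0.0574) and with arrays centred on their medians (0.155). Without GW1516 replicate 3, which enters this comparison only through the shared spread, 4 hnRNP genes passed. The share over all genes in that fit is not given here, so this count is not read as a result about hnRNP genes. Hnrnpab (Entrez 15384, probe set 17262478) spans 51600100 to 51606881 of chromosome 11.

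Other members moved by up to 0.60 after retinoic acid and did not pass. The log2 changes were -0.54 for Srsf4, 0.48 for Srsf3 and -0.44 for Srsf1, the best studied SR protein gene (adjusted p = 0.142, 0.149 and 0.208, limma). The largest among hnRNP genes were 0.60 for Hnrnpa3, -0.35 for Hnrnpa0 and 0.40 for Hnrnpr (adjusted p = 0.0748, 0.497 and 0.387). Also close to the threshold were Hnrnpf, which binds runs of G, and Hnrnpl, which binds CA repeats, named here after their values were seen, at -0.34 and -0.31 (adjusted p = 0.0548 and 0.0602, no overlap with controls for either). The other Hnrnpf probe sets, all dimmer, gave -0.12, -0.28, -0.23 and -0.17. None of these passed in a fit over all probe sets (adjusted p = 0.885, 0.226, 0.823 and 0.861, limma). Srsf3, which also serves in mRNA export, had values of 6.05, 6.42 and 6.30 with retinoic acid and 5.74, 5.61 and 5.99 in charcoal controls, groups that did not overlap. In all, 5 SR genes had every treated array below every control array and 1 had every array above, beside 11.2% and 12.9% of all genes; for hnRNP genes the counts were 4 below and 3 above.

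**Figure D2:**
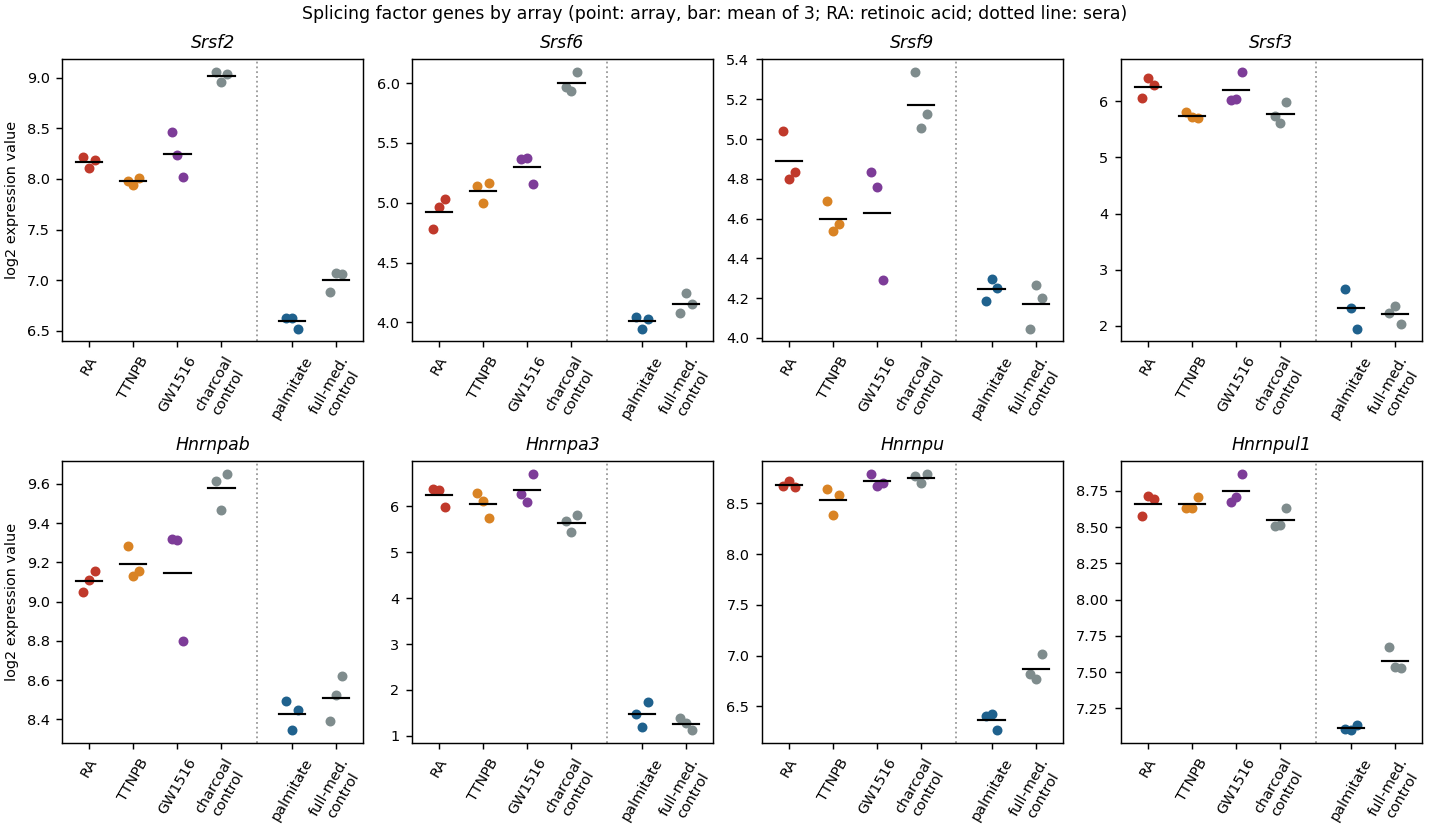
Log2 expression values (y axis, one scale per gene) of 8 members on each of the 18 arrays, with a bar at each group mean and a dotted line between the sera. Srsf2 and Srsf6 lie below the charcoal controls on all 9 ligand arrays, and Hnrnpu and Hnrnpul1 lie below the full-medium controls on the 3 palmitate arrays.

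TTNPB, at the same dose and time, lowered Srsf2 and Srsf6 by the test. Of the SR genes 2 of 10 SR genes passed (20.0%), both as falls, beside 1.26% of all genes that passed and 0.64% that passed as falls. None of the 19 hnRNP genes passed by limma, though 5 (of 19) had an unadjusted p under 0.05, beside 11.2% of all genes. The median log2 change was -0.38 over the SR genes and -0.10 over the hnRNP genes, beside 0.00 over all genes.

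Srsf2 had values of 7.98, 7.94 and 8.01 with TTNPB, against the control values given above (9.06, 8.95 and 9.04). Its log2 change was -1.04 ± 0.10 (SE, n = 3 each, adjusted p = 9.01e-06 by limma), 2.05-fold lower, and its p ranked 5 among the 22180 genes. For Srsf6 the TTNPB arrays read 5.14, 5.00 and 5.17, all below the controls (5.96, 5.93 and 6.09), with a log2 change of -0.90 ± 0.11 (adjusted p = 0.000296), 1.86-fold lower. No array of one group reached the other group for either gene.

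Srsf9, a short SR protein gene related to Srsf1, was close to the threshold with TTNPB. It read 4.69, 4.54 and 4.57 with TTNPB and 5.34, 5.05 and 5.13 in charcoal controls, groups that did not overlap, with a log2 change of -0.57 ± 0.14 (SE, n = 3 each, adjusted p = 0.0514 by limma). It passed after quantile normalization (adjusted p = 0.00812) and without GW1516 replicate 3, an array that takes part in this fit only through the shared spread (0.00544). The other largest changes that did not pass were -0.60 for Srsf4 and -0.50 for Srsf1 among SR genes (adjusted p = 0.175 and 0.237). Among hnRNP genes they were -0.43 for Hnrnpa0, -0.42 for Hnrnpdl and 0.40 for Hnrnpa3 (adjusted p = 0.524, 0.347 and 0.43). Hnrnpab had a log2 change of -0.39 (adjusted p = 0.103), with values of 9.28, 9.13 and 9.16, all under the control values, and passed without GW1516 replicate 3. With TTNPB 5 SR and 7 hnRNP genes had every treated array below every control array, beside 9.11% of all genes. Only 1 hnRNP gene, Hnrnpul1, had every array above, beside 8.83% of all genes. Its dimmer second probe set went the other way, with every TTNPB array below every control array. The log2 change there was -0.39 (adjusted p = 0.382 by limma in a fit over all probe sets).

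GW1516 lowered Srsf2, Srsf6 and Srsf9 by the test, 3 of 10 SR genes (30.0%), beside 2.57% of all genes that passed and 0.681% that passed as falls. Of 19 hnRNP genes 2 passed (10.5%), Hnrnpab as a fall and Hnrnpa3 as a rise (beside 1.89% of all genes that passed as rises), the one rise by the test among all members in the 4 comparisons with a control. The median log2 change was -0.24 over the SR genes and -0.03 over the hnRNP genes, beside -0.01 over all genes.

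Srsf2 read 8.46, 8.24 and 8.02 with GW1516, against 9.06, 8.95 and 9.04 in charcoal controls. These arrays were more spread than those of the other ligands (SD 0.221, against 0.0581 with retinoic acid and 0.0319 with TTNPB) but lay below every control. The log2 change was -0.77 ± 0.10 (SE, n = 3 each, adjusted p = 0.000514 by limma), 1.71-fold lower. Srsf6 read 5.36, 5.38 and 5.15, with a log2 change of -0.70 ± 0.11 (adjusted p = 0.00236), 1.62-fold lower and likewise with no overlap. Both calls were lost when the fit held only the 6 arrays compared (adjusted p = 0.197 for Srsf2 and 0.211 for Srsf6, limma). No member passed in that fit. The share over all genes there is not given here, so a loss particular to the members cannot be told from fewer calls over all genes. Srsf2 and Srsf6 both passed without GW1516 replicate 3, at log2 changes of -0.66 and -0.63.

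Srsf9, Hnrnpab and Hnrnpa3 passed only narrowly with GW1516. Srsf9 had values of 4.84, 4.76 and 4.29, against 5.34, 5.05 and 5.13 in charcoal controls (log2 change -0.54 ± 0.14 SE, n = 3 each, adjusted p = 0.0446 by limma). Hnrnpab had 9.32, 9.32 and 8.80, against 9.61, 9.47 and 9.65 in charcoal controls (log2 change -0.43 ± 0.11 SE, adjusted p = 0.0414). Hnrnpa3, a close relative of the splicing repressor Hnrnpa1, had 6.27, 6.10 and 6.72, against 5.68, 5.43 and 5.82 in charcoal controls (log2 change 0.72 ± 0.19 SE, adjusted p = 0.0486), 1.65-fold higher. In each of the 3 genes the third GW1516 array lay farthest from the controls. Without it the log2 changes were -0.37 for Srsf9, -0.26 for Hnrnpab and 0.54 for Hnrnpa3 (adjusted p = 0.113, 0.0518 and 0.122), so the change of Hnrnpab was smaller by over 1.5 times. Leaving out a charcoal control also ended these calls, with adjusted p of 0.175, 0.0776 and 0.0825 for Srsf9, 0.125, 0.0696 and 0.126 for Hnrnpab and 0.11, 0.191 and 0.0608 for Hnrnpa3 without replicates 1, 2 and 3, and Hnrnpa3 also lost its call without GW1516 replicate 1 (0.062). With the replicate number as a block the adjusted p was 0.0536 for Srsf9, 0.06 for Hnrnpab and 0.0593 for Hnrnpa3, and none of the 3 passed with arrays centred on their medians (0.15, 0.185 and 0.0662) or on the 12 charcoal-serum arrays alone (0.107, 0.0874 and 0.0713). Under the 13 other settings run for this comparison, Srsf9 and Hnrnpab each kept the call in 5 and Hnrnpa3 in 3. Srsf9 (Entrez 108014, probe set 17441122) spans 115327163 to 115333843 of chromosome 5, and Hnrnpa3 (Entrez 229279, probe set 17372140) spans 75659105 to 75669407 of chromosome 2.

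Among SR genes that did not pass with GW1516, the largest changes were 0.45 for Srsf10, which encodes a splicing repressor active when dephosphorylated, -0.45 for Srsf4 and 0.42 for Srsf3 (adjusted p = 0.125, 0.276 and 0.253, limma). Among hnRNP genes they were -0.55 for Hnrnpa0, 0.47 for Hnrnpr and -0.34 for Hnrnpul2 (adjusted p = 0.248, 0.304 and 0.521). For Hnrnpul2, 1 array stood apart from the others. The gene read 6.49, 6.62 and 5.30 with GW1516 and 6.52, 6.28 and 6.62 in charcoal controls, and without GW1516 replicate 3 its change was 0.08. In all, 5 SR and 4 hnRNP genes had each GW1516 array below each control array, beside 8.03% of all genes, and 2 SR and 4 hnRNP genes had each array above, beside 8.25%.

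Because the 3 ligand groups were set against the same 3 control arrays, their changes are not independent of one another, and the ligands were also compared directly, at 1 µM and 6 hours each. None of the 29 members passed by limma between retinoic acid and TTNPB, between retinoic acid and GW1516 or between TTNPB and GW1516, beside 0.153%, 0.352% and 0.0676% of all genes. At an unadjusted p under 0.05 there were 1, 3 and 6 of the 29 members in the same order, beside 7.27%, 9.3% and 10.5% of all genes. Srsf2 differed by 0.19 between retinoic acid and TTNPB (95% interval -0.01 to 0.39, adjusted p = 0.704). Between TTNPB and GW1516 it differed by -0.26 (-0.46 to -0.06, adjusted p = 0.356). Srsf6 differed by -0.37 between retinoic acid and GW1516 (-0.61 to -0.14, adjusted p = 0.234), the lowest adjusted p of any member in that comparison.

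Srsf3 read 6.05, 6.42 and 6.30 with retinoic acid against 5.82, 5.72 and 5.69 with TTNPB, which did not overlap (difference 0.51, interval 0.14 to 0.88, adjusted p = 0.434). Srsf11 and Srsf10 differed by -0.44 and -0.43 between TTNPB and GW1516 (adjusted p = 0.308 and 0.342). The interval lay within 1.5-fold of no difference for 23 of 29 members between retinoic acid and TTNPB, 24 between retinoic acid and GW1516 and 19 between TTNPB and GW1516. These counts take in Srsf12 in each comparison and Hnrnpa1l2-ps2 between retinoic acid and GW1516, both under background in these groups. The share over all genes is not given here.

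Palmitate lowered Hnrnpu and Hnrnpul1, related genes whose proteins carry a SAP domain that binds scaffold DNA, and no SR gene passed. Of 19 hnRNP genes 2 passed (10.5%), both as falls, beside 0.681% of all genes that passed and 0.537% that passed as falls. Of 10 SR genes none passed by limma, and 1, Srsf2, had an unadjusted p under 0.05, beside 7.0% of all genes. The median log2 change was -0.16 over the hnRNP genes and -0.12 over the SR genes, beside 0.00 over all genes.

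Hnrnpu had values of 6.41, 6.42 and 6.27 with palmitate and of 6.82, 6.77 and 7.02 in full-medium controls. Its log2 change was -0.50 ± 0.09 (SE, n = 3 each, adjusted p = 0.00744 by limma), 1.42-fold lower. Hnrnpul1 read 7.10, 7.10 and 7.14 with palmitate and 7.67, 7.54 and 7.53 in full-medium controls, a log2 change of -0.47 ± 0.07 (SE, adjusted p = 0.00494), 1.38-fold lower. The groups did not overlap for either gene, and the palmitate arrays of Hnrnpul1 lay closer together than its controls. Hnrnpu (Entrez 51810, probe set 17230282) spans 178321108 to 178338891 of chromosome 1, and Hnrnpul1 (Entrez 232989, probe set 17488013) spans 25721161 to 25756268 of chromosome 7.

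Each of these genes has a second probe set that was under background with palmitate and in full-medium controls, at 0.43 and 0.42 for Hnrnpu and at 0.62 and 0.56 for Hnrnpul1. Averaging the probe sets ended both calls (adjusted p = 0.647 and 0.832). A fit on the 6 full-medium arrays alone also ended them (0.148 and 0.0778), and Hnrnpu lost its call without full-medium control replicate 3 (0.0537) and with arrays centred on their medians (0.0707).

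Srsf2 came just short of the threshold with palmitate, at 6.63, 6.62 and 6.52, against 6.88, 7.07 and 7.06 in full-medium controls. The groups did not overlap, with a log2 change of -0.41 ± 0.10 (SE, n = 3 each, adjusted p = 0.0539 by limma), and the gene passed without full-medium control replicate 1 (0.0462) and without GW1516 replicate 3 (0.00227). Srsf6 read 4.05, 3.95 and 4.03 with palmitate and 4.08, 4.25 and 4.15 in full-medium controls, a change of -0.15 (adjusted p = 1). The largest other changes that did not pass were -0.35 for Srsf5 and -0.26 for Srsf4 (adjusted p = 0.756 and 1), and -0.47 for Hnrnpll, a regulator of exon choice known from lymphocytes, -0.36 for Hnrnpul2 and -0.33 for Hnrnpm (adjusted p = 0.329, 0.949 and 0.751). With palmitate 3 SR and 5 hnRNP genes had every array below the controls, beside 8.76% of all genes, and none had every array above, beside 6.46%. Palmitate differed from the ligands in dose and serum, so its values are set beside theirs without a test. Hnrnpu had log2 changes of -0.07, -0.22 and -0.03 with retinoic acid, TTNPB and GW1516, and Hnrnpul1 of 0.11, 0.11 and 0.20, none of which passed. Their second probe sets went the other way with these ligands, at 0.07, 0.25 and 0.51 for Hnrnpu and -0.33, -0.39 and -0.24 for Hnrnpul1. In charcoal controls these probe sets averaged 5.47 and 1.62, above background, and none of their changes passed in a fit over all probe sets.

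The wider splicing machinery was read from 6 lists of related genes. After retinoic acid, 2 of 9 measured SR protein kinase and importer genes rose, beside 3.82% of all genes, and none fell. Clk1, which encodes a nuclear kinase that releases SR proteins from speckles, rose by 0.69 ± 0.16 (SE, n = 3 each, adjusted p = 0.012 by limma), and Srpk2, a mainly cytoplasmic SR protein kinase gene, by 0.61 ± 0.11 (adjusted p = 0.0031). With GW1516 Clk1 rose by 0.69 and Srpk2 by 0.48 (adjusted p = 0.025 and 0.0295). With TTNPB neither passed, at 0.40 and 0.42 (adjusted p = 0.298 and 0.0806), and none of the 9 passed with TTNPB or palmitate by limma, where 3 and 2 had an unadjusted p under 0.05 (11.2% and 7.0% of all genes).

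Of 7 nonsense-mediated decay genes, 2 rose after retinoic acid, Upf2 by 1.06 and Smg1 by 0.68, and 2 with GW1516, Upf2 by 1.01 and Smg1 by 0.53, beside 3.82% and 1.89% of all genes that rose. Upf2 bridges the decay factor Upf1 to the exon junction complex, and Smg1 is the kinase that phosphorylates Upf1. With TTNPB Upf2 rose by 0.69 (adjusted p = 0.0396) and Smg5, which recruits decay enzymes, fell by 0.63 (adjusted p = 0.0389), beside 0.618% of all genes that rose and 0.64% that fell. None of the 7 passed with palmitate by limma (1 had an unadjusted p under 0.05, beside 7.0% of all genes), for which Upf2 was under background.

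Among 10 hnRNP protein genes with other symbols, Ptbp2 (0.61), Ptbp3 (0.55) and Pcbp2 (0.34) rose after retinoic acid and Ptbp3 (0.59) with GW1516, that is 3 and 1 of 10, beside 3.82% and 1.89% of all genes. The first 2 encode polypyrimidine tract-binding repressors of splicing. None of the 10 passed with TTNPB or palmitate by limma. However, 4 and 3 of them had an unadjusted p under 0.05, beside 11.2% and 7.0% of all genes. Of 21 other splicing regulators 4 rose after retinoic acid, Qk (0.63), Rbm39 (0.62), Tia1 (0.58) and Mbnl2 (0.45), beside 3.82% of all genes. Esrp2, an epithelial splicing regulator gene, fell by 0.66 (adjusted p = 0.00782), 1 of 21, beside 1.47% of all genes. Tia1 (0.68) and Rbm39 (0.46) rose with GW1516 (1.89% of all genes did), and none of the 21 passed with TTNPB or palmitate by limma. Of the 21, 5 and 1 had an unadjusted p under 0.05, beside 11.2% and 7.0% of all genes.

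Of 48 core spliceosome genes, 5 fell and 2 rose after retinoic acid, beside 1.47% and 3.82% of all genes, so the share of rises was near that over all genes. The falls included Sf3b3, a subunit of the U2 particle (-0.58), Snrnp70 of the U1 particle (-0.54), Eftud2, the GTPase of the U5 particle (-0.45), and Prpf31 (-0.43), and the rises were those of Prpf39 (0.71) and Sf3b1 (0.41). Sf3b3 and Eftud2 also fell with TTNPB (-0.60 and -0.32) and with GW1516 (-0.35 and -0.32), and Sf3b1 rose with GW1516 by 0.47, beside falls of 0.64% and 0.681% of all genes and rises of 1.89%. With palmitate, Prpf8 (-0.43) and the helicase gene Snrnp200 (-0.36), both of the U5 particle, fell and Snrpb2 rose by 0.39, beside 0.537% and 0.144% of all genes.

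Of 16 SR-related genes, Scaf4 (-0.39) and Rnps1 (-0.38) fell after retinoic acid, and Scaf4 fell with TTNPB (-0.56), beside 1.47% and 0.64% of all genes. None of the 16 passed with GW1516 by limma, where 7 had an unadjusted p under 0.05, beside 15.4% of all genes. Srrm2, which encodes a large scaffold protein of nuclear speckles, fell with palmitate by 0.71 ± 0.09 (SE, n = 3 each, adjusted p = 0.000974 by limma), 1 of 16 beside 0.537% of all genes, to 5.55 with palmitate, against 6.26 in full-medium controls. Over the core spliceosome list the median log2 change was -0.11, -0.10, -0.14 and -0.04 with retinoic acid, TTNPB, GW1516 and palmitate, beside -0.03, 0.00, -0.01 and 0.00 over all genes.

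**Figure D3:**
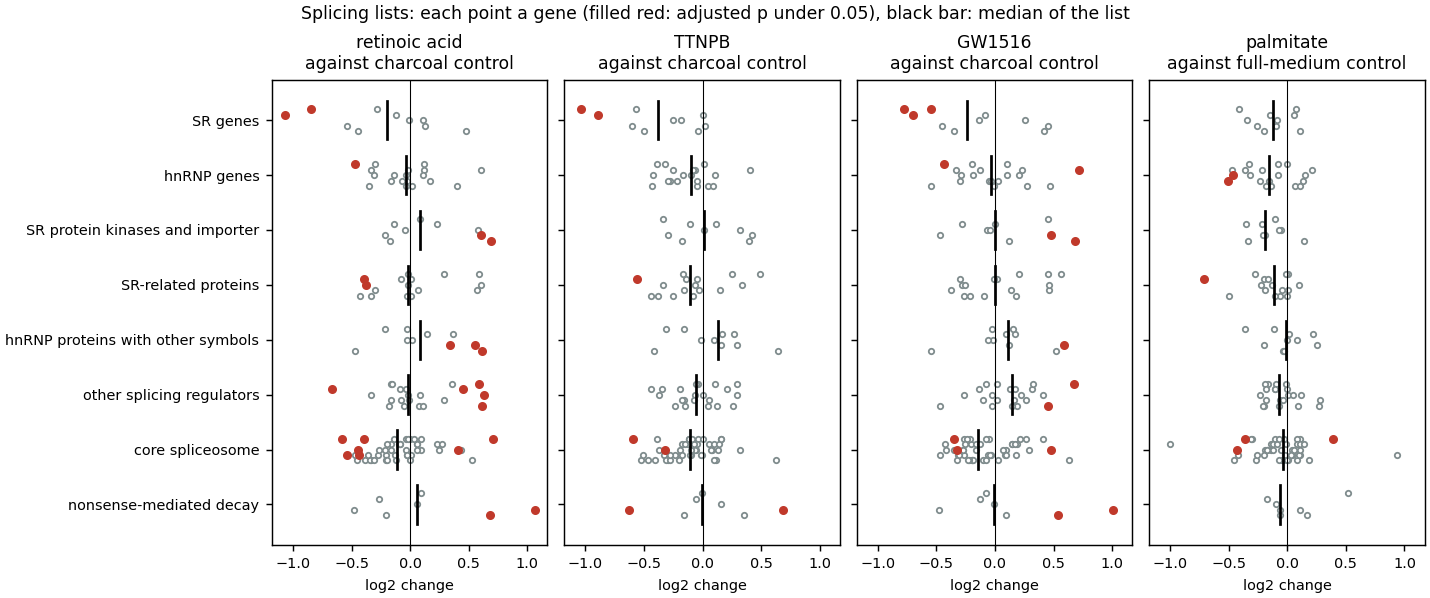
Log2 changes (x axis) of all measured genes of the SR and hnRNP families and of 6 related lists (rows) in 4 comparisons (panels). Each point is a gene, filled red where it passed an adjusted p of 0.05, and black bars mark list medians. The SR median lay at -0.20, -0.38 and -0.24 with retinoic acid, TTNPB and GW1516.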

How the data were processed

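The authors deposited a table of 41345 probe sets by 18 arrays. These log2 values (a scale taken from their range, -0.538 to 13.2) were made with Partek by the authors, per the submitters' processing notes. Its version, the background correction and the normalization are not given in the sources used here. Probe sets with a single gene symbol in GEO's platform annotation (23521) were used, with symbols updated by Entrez number for 23328 through a GRCm38.p6 table. Not used were 1814 that carry more than 1 symbol and 16010 with no symbol.

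A model with 1 mean per group was fitted across the 18 arrays (limma 3.58.1, R 4.3.3; variance trend, 12 residual degrees of freedom, no filter). Each SE comes from this fit, with a spread drawn from all 18 arrays and not only from the 2 groups compared. P-values are 2-sided, adjusted by Benjamini-Hochberg over all genes of a comparison, with a threshold of 0.05. They measure only the spread between these arrays, since the labels do not say whether replicates were separate cultures, and 3 arrays a group limit the precision. Every member that passed was named, with the 3 largest changes per family and comparison that did not and up to 6 genes per related list. Members, lists, background and tests were chosen with earlier results of these data known. The code was tested on simulated data. Same-numbered arrays of treated and control groups had correlated deviations of -0.23 to 0.21, so the numbers were not taken as pairs.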

Additional observations from a re-analysis of the deposited data

How the results depend on the processing

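The falls of Srsf2 and Srsf6 with retinoic acid and TTNPB passed under each of the 14 other settings run, at -0.93 to -0.79 and -1.11 to -1.02 for Srsf2 and -1.37 to -0.63 and -1.04 to -0.54 for Srsf6. No called change turned its direction. On only the 2 groups compared, the counts were 5 SR and 5 hnRNP genes for retinoic acid, 1 hnRNP gene for TTNPB, 0 SR and 0 hnRNP for GW1516, 0 hnRNP for palmitate and 2 members between retinoic acid and TTNPB. Quantile normalization gave 4 SR and 3 hnRNP genes for retinoic acid, 1 hnRNP gene for TTNPB and 1 member between retinoic acid and GW1516. Over all 22180 genes it passed 1286 for retinoic acid and 487 for TTNPB, against 1174 and 279 as deposited. With arrays centred on their medians, 0 hnRNP genes passed for retinoic acid and for GW1516, and 1 for palmitate. Over all genes 805, 299 and 32 passed in these comparisons, against 1174, 570 and 151 as deposited. For the other settings, and between ligands, the share over all genes is not given here. Those counts of members are therefore not set beside one. A shift in them cannot be told apart from a shift in calls over all genes. Without dim genes 4 hnRNP genes passed for retinoic acid and 1 SR gene for palmitate. With the mean of all probe sets 0 hnRNP genes passed for palmitate, and on the 12 charcoal-serum arrays 0 for GW1516. With a replicate block 0 hnRNP genes passed for GW1516; the numbers did not pair the samples, and in no comparison did each array correlate best with its own number. Without single arrays, including GW1516 replicate 3, a choice made after the data were seen, counts ranged from 2 to 2 SR and 0 to 4 hnRNP genes for retinoic acid, 2 to 3 and 0 to 1 for TTNPB, 2 to 3 and 0 to 2 for GW1516, and 0 to 1 and 1 to 2 for palmitate. For Hnrnpul2 with GW1516, which did not pass, the change was -0.58 to 0.081 without single arrays, and 0.081 without GW1516 replicate 3. Quantile normalization also moved the split over all genes, to 702 rises and 584 falls (848 and 326 as deposited) for retinoic acid, 406 and 330 (419 and 151) for GW1516 and 58 and 106 (32 and 119) for palmitate, and centring on medians gave 680 and 125 for retinoic acid and 254 and 45 for GW1516. The causes of these shifts were not tested.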

Other observations

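Hnrnpa1 and Hnrnph3 have no probe set of their own among those used, since theirs carry several symbols. The brighter Hnrnpa1 probe set, which also lists the copies Hnrnpa1l2-ps2 and Gm10052, averaged 8.35 with retinoic acid, 8.34 with TTNPB and 8.40 with GW1516, against 8.20 in charcoal controls, and 7.49 with palmitate, against 7.42 in full-medium controls. The probe set shared by Rufy2 and Hnrnph3 averaged 3.32, 2.79 and 3.06 with the same ligands, against 2.82 in charcoal controls, and 1.09 with palmitate, against 0.71 in full-medium controls. Transcripts of near-identical copies cannot be told apart on these probe sets.

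The 3 Hnrnpk probe sets gave changes of 0.17, 0.13 and 0.07 with retinoic acid, and no Hnrnpk probe set passed in any comparison with a control. The dimmer Hnrnpu probe set gave 0.51 with GW1516 (adjusted p = 0.148 over all probe sets), where the brighter gave -0.03.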
